A study of Mus musculus with 5 samples.

Results

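Ncl, Npm1, Nolc1, Fbl, Nop56, Nop58, Dkc1, Nop10, Nhp2 and Gar1 encode abundant proteins of the nucleolus and the core proteins of the small nucleolar ribonucleoproteins (snoRNPs). They were taken by symbol, 10 of the 27998 genes in each count matrix, and all 10 had counts in every library. The study profiled single cells of wild type C57BL/6 mouse bone marrow, sorted by flow cytometry into 4 gates of blood stem and progenitor cells, with droplet capture and 3′ counting of unique molecular identifiers (UMIs). Megakaryocyte/erythroid progenitors (MEP) were sorted as lineage-negative KIT+ SCA1- CD34- CD16/32- cells and granulocyte/monocyte progenitors (GMP) as lineage-negative KIT+ SCA1- CD34+ CD16/32+ cells. Common myeloid progenitors (CMP) were sorted as lineage-negative KIT+ SCA1- CD34+ CD16/32- cells, and LSK cells, which hold the stem cells, as lineage-negative SCA1+ KIT+ cells. Nothing states the age, the sex or the number of animals, or whether animals were pooled. No treatment or mutation separates the gates.

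The nucleolus is where ribosomal RNA is transcribed, chemically modified, cleaved and assembled into ribosomal subunits. Box C/D snoRNPs place 2′-O-methyl groups on ribosomal RNA and box H/ACA snoRNPs convert uridines to pseudouridine, each guided by the small nucleolar RNA (snoRNA) it carries. In blood formation, NPM1 is a frequent target of mutation in human acute myeloid leukaemia, and inherited mutations of human DKC1, NOP10 and NHP2 cause dyskeratosis congenita, a bone marrow failure.

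Several of these genes also carry snoRNA genes inside their own transcripts. In the GENCODE M21 annotation of GRCm38 (mm10), 13 snoRNA genes lay within 4 of the 10 genes, Ncl, Nop56, Nop58 and Dkc1. None of the 13 had a row in the count table, so the snoRNAs themselves are not analysed here, and counts of a host gene are 3′ tags of its messenger RNA. Of those 13, 4 are shown as examples that carry the boxes after which both snoRNP classes are named. Gm24148 in Ncl, Gm26287 in Nop58 and Gm24451 in Nop56 carried such boxes too and are not shown. Capitals mark box C (TGATGA) and box D (CTGA) in the first 3, and box ACA in the last. Snord82 is in an intron of Ncl (minus strand, chr1:86356261-86356330), Snord110 in an intron of Nop56 (plus strand, chr2:130275506-130275573) and Snord11 in an intron of Nop58 (plus strand, chr1:59704790-59704873). Snora75 lies within Ncl (minus strand, chr1:86351169-86351301) and is exonic in a listed Ncl transcript.
Snord82: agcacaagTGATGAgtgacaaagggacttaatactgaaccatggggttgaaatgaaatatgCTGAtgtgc
Snord110: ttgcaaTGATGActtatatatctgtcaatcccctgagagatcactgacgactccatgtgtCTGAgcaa
Snord11: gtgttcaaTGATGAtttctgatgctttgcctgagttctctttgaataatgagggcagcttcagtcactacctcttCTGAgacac
Snora75: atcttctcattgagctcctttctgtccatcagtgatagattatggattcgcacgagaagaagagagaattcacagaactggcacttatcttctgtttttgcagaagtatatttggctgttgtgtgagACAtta

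By the GENCODE M21 annotation, Ncl lies at chr1:86344719-86359400 (minus strand), Npm1 at chr11:33152287-33163206 (minus) and Nolc1 at chr19:46075863-46085530 (plus). The box C/D genes are at chr7:28169710-28179269 (Fbl, plus), chr2:130274430-130279313 (Nop56, plus) and chr1:59684971-59719044 (Nop58, plus). The box H/ACA genes are at chrX:75095854-75109777 (Dkc1, plus), chr2:112261926-112263269 (Nop10, plus), chr11:51619735-51623714 (Nhp2, plus) and chr3:129824912-129831396 (Gar1, minus).

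After filtering, 6284 MEP, 8027 GMP, 3713 CMP and 10870 LSK cells held 80273121, 73362645, 26919088 and 75167959 UMIs, with medians of 12578, 9100, 6904 and 5992 UMIs per cell. Levels are given as CPM, the UMIs of a gene in every 1000000 UMIs of its library. Each gate had 1 library, since the 2 CMP samples held identical matrices and were used once, so no difference between gates has a replicate check and no test was made. Intervals in the text are exact 95% intervals that cover counting error only. The gate antigens followed the labels at the RNA level. Ly6a, which encodes SCA1, had 0.112 CPM in MEP, 1.10 CPM in GMP, 1.49 CPM in CMP and 78.2 CPM in LSK, and Cd34 had 0.498, 118, 234 and 399 CPM in the same order. Fcgr3, which encodes CD16, was highest in GMP at 208 CPM, against 0.149 CPM in MEP, 13.9 CPM in CMP and 0.838 CPM in LSK, and Fcgr2b, which encodes CD32, had 0.336, 61.5, 33.8 and 6.31 CPM in MEP, GMP, CMP and LSK. Kit was at 34.9 to 100.5 CPM in every library. Pairs of libraries shared 36 to 130 cell barcodes, at most 1.62% of the smaller library.

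Together the 10 genes made up 10303 CPM in MEP, 5886 CPM in GMP, 6156 CPM in CMP and 4922 CPM in LSK. The intervals were 10280 to 10325, 5868 to 5903, 6126 to 6185 and 4906 to 4938 CPM in the same order. MEP thus stood above every other gate, by 1.75-fold over GMP, 1.67-fold over CMP and 2.09-fold over LSK, whereas GMP and CMP differed least, with a sign that depended on the scaling. MEP was the highest gate for 9 genes and CMP for Nop10. LSK was the lowest gate for 7 genes and GMP for Nop56, Nop58 and Dkc1, although these 3 were higher in GMP than in LSK when libraries were scaled on their typical gene rather than their total (median-of-ratios or TMM factors). Because a sum per gate divides by the RNA of all its cells, fewer expressing cells and less RNA per cell cannot be told apart in it. In a mean cell as sequenced, the 10 genes had 132 UMIs in MEP, 53.8 in GMP, 44.6 in CMP and 34.0 in LSK.

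**Figure D1:**
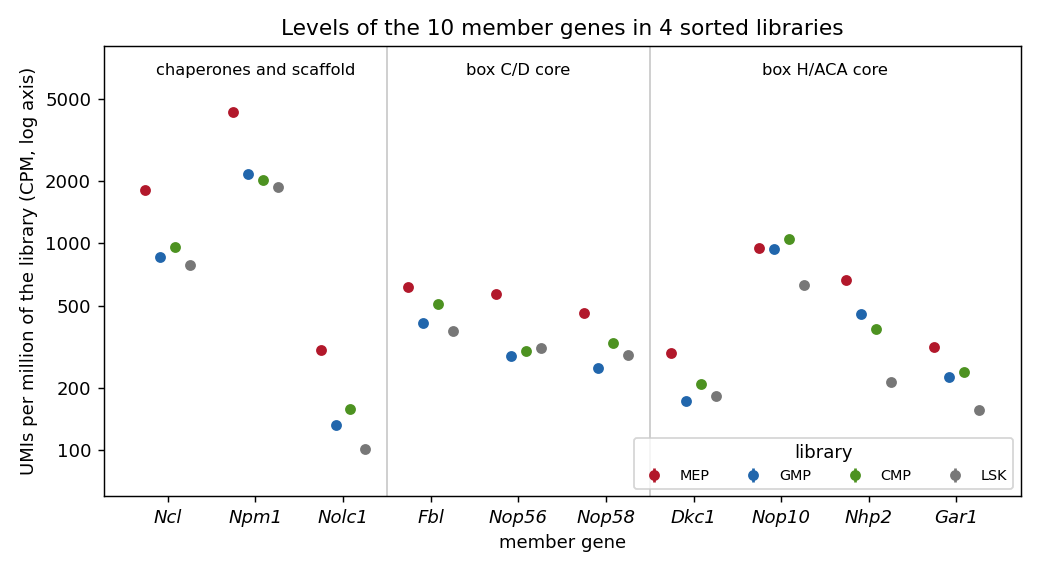
CPM (log axis) of each of the 10 genes in the MEP, GMP, CMP and LSK libraries, 1 point per library, with exact 95% Poisson intervals that are mostly smaller than the points. The MEP point is the highest for 9 genes, and Nop10 is the exception, at 947 CPM in MEP, 937 CPM in GMP, 1046 CPM in CMP and 626 CPM in LSK.

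The chaperones and scaffolds came first in the size of the MEP difference. Ncl encodes nucleolin, an RNA-binding protein that acts in ribosomal RNA transcription and processing. It had 1808 CPM in MEP, 855 CPM in GMP, 961 CPM in CMP and 786 CPM in LSK. MEP thus lay 2.11-fold above GMP (interval 2.09 to 2.13), and the other 3 gates lay close together by CPM. With median-of-ratios factors the log2 ratio of Ncl was 0.66 in GMP over LSK and 0.67 in CMP over LSK. TMM factors gave 0.57 and 0.60. Npm1 encodes nucleophosmin, a chaperone of histones and pre-ribosomes that shuttles between nucleolus and cytoplasm. Its level was 4313 CPM in MEP, 2163 CPM in GMP, 2017 CPM in CMP and 1876 CPM in LSK, and the order of the gates was kept beyond counting error at each step. Nolc1 encodes Nopp140, which binds both classes of snoRNP in the nucleolus and in Cajal bodies. With 305 CPM in MEP, 132 CPM in GMP, 159 CPM in CMP and 101.5 CPM in LSK it varied 3.01-fold between its highest and lowest gate. The summed level of these 3 genes was 6426 CPM in MEP, 3151 CPM in GMP, 3137 CPM in CMP and 2763 CPM in LSK. The GMP and CMP sums overlapped in their intervals, 3138 to 3163 CPM in GMP and 3116 to 3158 CPM in CMP.

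The core proteins of box C/D snoRNPs spread less between gates. Fbl encodes fibrillarin, the methyltransferase of the particle, and had 617 CPM in MEP, 412 CPM in GMP, 508 CPM in CMP and 376 CPM in LSK. Nop56, a scaffold protein on which fibrillarin sits, had 572 CPM in MEP, 284 CPM in GMP, 303 CPM in CMP and 313 CPM in LSK. Nop58, the paired scaffold protein on the other side of the particle, had 463 CPM in MEP, 249 CPM in GMP, 329 CPM in CMP and 289 CPM in LSK. All 3 were lower in GMP than in CMP, with log2 ratios of -0.30 (Fbl), -0.09 (Nop56, which turned to 0.069 with median-of-ratios and 0.039 with TMM factors) and -0.40 (Nop58). For Nop56 the intervals of CMP and LSK overlapped, 297 to 310 CPM in CMP and 309 to 317 CPM in LSK. The summed level of the class was 1652 CPM in MEP, 945 CPM in GMP, 1140 CPM in CMP and 979 CPM in LSK, so GMP was its lowest gate by CPM.

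The core proteins of box H/ACA snoRNPs did not share 1 pattern. Dkc1 encodes dyskerin, the pseudouridine synthase, which is also part of telomerase. It had 296 CPM in MEP, 173 CPM in GMP, 209 CPM in CMP and 183 CPM in LSK, an order like that of Nop58. Nhp2, an RNA-binding core protein, had 666 CPM in MEP, 454 CPM in GMP, 386 CPM in CMP and 213 CPM in LSK, the widest spread of the 10 genes at 3.12-fold. Gar1, which joins the particle late in its assembly, had 315 CPM in MEP, 226 CPM in GMP, 238 CPM in CMP and 157 CPM in LSK. Nop10, the smallest core protein, had 947 CPM in MEP, 937 CPM in GMP, 1046 CPM in CMP and 626 CPM in LSK. The MEP and GMP intervals of Nop10 overlapped, 940.3 to 954 CPM in MEP and 930.4 to 944 CPM in GMP. Dkc1 therefore stood 1.71-fold higher in MEP than in GMP while Nop10, its direct partner, stood 1.01-fold higher (interval 0.9999 to 1.02). The summed level of the class was 2224 CPM in MEP, 1790.0 CPM in GMP, 1879 CPM in CMP and 1180 CPM in LSK.

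The make-up of each class can be compared between gates without any scaling by library total. Nop10 gave 42.6% of the box H/ACA UMIs in MEP, 52.4% in GMP, 55.6% in CMP and 53.1% in LSK. Nhp2 gave 29.96% in MEP, 25.4% in GMP, 20.5% in CMP and 18.1% in LSK, and Dkc1 gave 13.3%, 9.65%, 11.1% and 15.5% in the same order. Gar1 varied least, between 12.6% and 14.2%. MEP thus held a smaller share of Nop10 and a larger share of Nhp2 than any other gate. Among box C/D proteins, Fbl gave 37.4% in MEP, 43.6% in GMP, 44.6% in CMP and 38.4% in LSK, Nop56 gave 34.6%, 30.1%, 26.6% and 32.0% in the same order, and Nop58 stayed between 26.3% and 29.6%. Npm1 gave 64.3% to 68.7% of the chaperone UMIs in the 4 gates, Ncl 27.1% to 30.6% and Nolc1 3.67% to 5.06%.

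**Figure D2:**
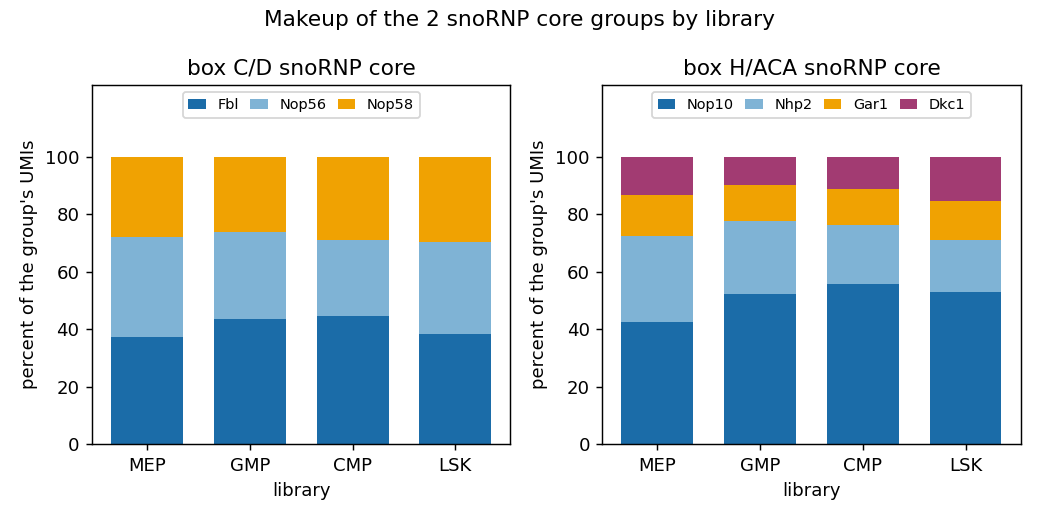
Stacked bars of the percent of a class's UMIs given by each of its genes in MEP, GMP, CMP and LSK. The left panel holds the box C/D core and the right panel the box H/ACA core. The Nop10 part of the box H/ACA bar is smallest in MEP (42.6%) and largest in CMP (55.6%), while the Nhp2 part is largest in MEP (29.96%) and smallest in LSK (18.1%).

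Each pair of gates was then compared gene by gene. A gene counted as 2-fold different when the ratio of CPM was at least 2 and the higher library had at least 50 CPM; genes with 50 CPM in either library formed the comparison. All 10 genes passed that minimum in each of the 6 pairs, and none was 2-fold lower in any of them. The pairs share libraries, so they are 6 views of 4 measurements.

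MEP over GMP gave 3 genes that were 2-fold higher in MEP, Nolc1 (log2 ratio 1.21, interval 1.18 to 1.24), Ncl (1.08, 1.07 to 1.09) and Nop56 (1.01, 0.98 to 1.03). Of 3066 genes compared, 12.1% were 2-fold higher in MEP and 12.2% lower. Npm1 lay just outside the limit at 1.99-fold, and Nop56 just inside at 2.01-fold. The Nop56 call was lost with median-of-ratios or TMM factors, thinned cells or equal weight per cell, at 0.96 to 0.997. Npm1 passed, at 1.02, when ribosomal protein and mitochondrial genes were left out of the total. The remaining ratios ran from 0.01 for Nop10 to 0.90 for Nop58. The median of the 10 genes was 0.84, against 0.21 over all genes compared. By class, the chaperones stood 1.03, the box C/D proteins 0.81 and the box H/ACA proteins 0.31 higher in MEP on the log2 scale.

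MEP over CMP gave 1 such gene, Npm1, at 1.10 (interval 1.08 to 1.11). With median-of-ratios or TMM factors Ncl, Nop56 and Nolc1 passed as well, which made 4. Among 3104 genes, 10.5% were 2-fold higher in MEP and 11.3% lower. Nolc1 (0.94), Nop56 (0.92) and Ncl (0.91) followed. Nop10 was the 1 gene below 0, at -0.14. The median of the 10 was 0.64, against 0.18 over all genes.

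MEP over LSK gave 5 genes, Nhp2 (1.64, interval 1.62 to 1.67), Nolc1 (1.59, 1.55 to 1.63), Ncl (1.202, 1.19 to 1.22), Npm1 (1.201, 1.19 to 1.21) and Gar1 (1.01, 0.97 to 1.04). Among 3350 genes, 13.5% were 2-fold higher in MEP and 16.4% lower. The smallest ratio was 0.60, for Nop10. The median of the 10 was 0.94, against 0.18 over all genes. Gar1 lay just inside the limit at 2.01-fold and Nop56 outside it at 1.82-fold; Gar1 fell short, at 0.95, when ribosomal protein and mitochondrial genes were left out of the total. With median-of-ratios or TMM factors all 10 genes passed.

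The comparisons without MEP were smaller. GMP over CMP had 0 genes at 2-fold, where 2.92% of 2804 genes were 2-fold higher in GMP and 4.03% lower. Nhp2 (0.23) and Npm1 (0.10) were above 0 and the other 8 were between -0.40 for Nop58 and -0.08 for Gar1, but Nop56, Nop10 and Gar1 were also above 0 with median-of-ratios factors, and Nop56 and Gar1 with TMM factors or thinned cells. GMP over LSK had 1 gene at 2-fold, Nhp2 (1.09, interval 1.06 to 1.12), or 3 with median-of-ratios and 2 with TMM factors, where 7.49% of 3149 genes were 2-fold higher in GMP and 13.3% lower. Nop10 (0.58) and Gar1 (0.52), both box H/ACA proteins, came next, while the box C/D proteins Nop56 (-0.14) and Nop58 (-0.22) and the box H/ACA protein Dkc1 (-0.08) were below 0 by CPM and above 0, at 0.32 to 0.46, with median-of-ratios factors. CMP over LSK had 0 genes at 2-fold, or 3 with median-of-ratios and 2 with TMM factors, where 2.72% of 3056 genes were 2-fold higher in CMP and 6.12% lower, and its ratios ran from -0.05 for Nop56, which turned to 0.33 with median-of-ratios factors, to 0.85 for Nhp2. The medians of the 10 genes were -0.16, 0.17 and 0.36 in these 3 pairs, against -0.01, -0.01 and 0.05 over all genes.

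The choice of scaling moved these ratios. Median-of-ratios size factors shifted every gene by 0.52 in MEP over LSK, 0.54 in GMP over LSK and 0.38 in CMP over LSK, and by 0.14 and 0.16 in MEP over CMP and GMP over CMP. MEP over GMP moved by -0.02. With those factors the 10-gene sum was 1.58 higher in MEP than in LSK, all 10 genes were 2-fold higher, and the sum of GMP over CMP turned to 0.10 from -0.06. The 10-gene sum stayed higher in MEP than in each other gate under every scaling tried.

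**Figure D3:**
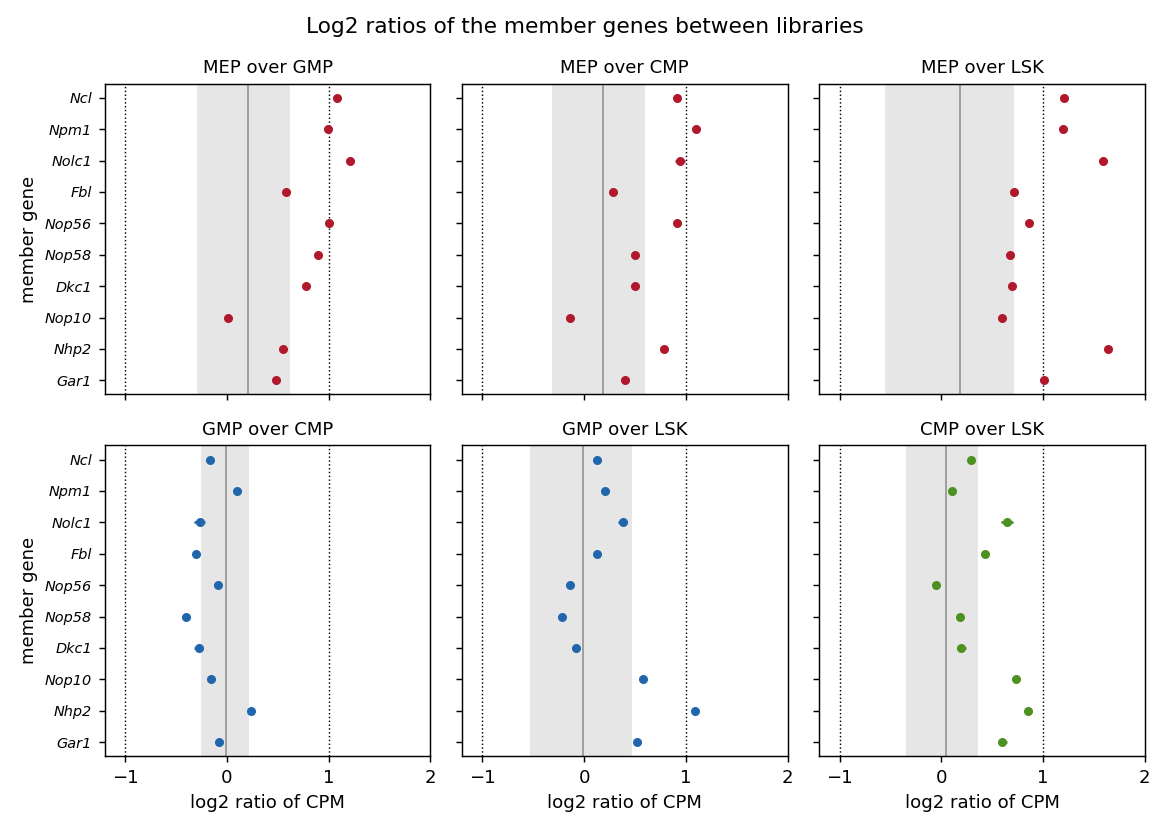
Log2 ratio of CPM for each of the 10 genes in the 6 pairs of gates, the first-named gate over the second, with exact 95% intervals; the grey band spans the lower to upper quartile of all genes compared, the grey line is their median and dotted lines mark 2-fold. In MEP over LSK all 10 points are above 0, from 0.60 (Nop10) to 1.64 (Nhp2), and in GMP over CMP 8 of 10 are below 0, of which 3 turn above 0 with median-of-ratios factors.

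Other genes of the same pathway were read from lists of ribosome assembly factors that hold none of the 10 genes. Of 30 genes of the small subunit processome, the large complex that first processes the ribosomal RNA precursor, 29 were above 0 in MEP over GMP. Of all genes at 50 CPM or more, 62.8% were. The list count includes genes below that minimum, here and in the lists that follow, so the shares above 0 are not like for like. Of the 22 that reached the 50 CPM minimum, 2 were 2-fold higher in MEP over CMP, against 10.5% of all genes. The count was 8 in MEP over LSK, against 13.5%, and 4 in MEP over GMP, against 12.1%. The 4 in MEP over GMP were Rrp9 (99.4 CPM in MEP, 37.5 CPM in GMP, 43.9 CPM in CMP and 39.0 CPM in LSK), Wdr75 (71.2, 30.8, 34.0 and 29.5 CPM), Nop14 (126, 57.1, 65.9 and 69.1 CPM) and Bms1 (52.3, 25.6, 29.98 and 24.7 CPM, all in the same order). Utp11l, by contrast, was at 132 CPM in MEP, 130.2 CPM in GMP, 130.2 CPM in CMP and 121 CPM in LSK. The medians of the list were 0.82, 0.65 and 0.85 in MEP over GMP, CMP and LSK, and -0.14 in GMP over CMP, which is less than the 0.16 shift of that scaling.

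Of 31 genes of large subunit assembly, all 31 were above 0 in MEP over GMP and 30 in MEP over LSK. Of all genes at 50 CPM or more, 62.8% and 57.8% were. Of the 28 that reached 50 CPM, 5 were 2-fold higher in MEP over GMP and 11 in MEP over LSK, against 12.1% and 13.5% of all genes. Lyar, a nucleolar zinc-finger protein, had 566 CPM in MEP, 283 CPM in GMP, 257 CPM in CMP and 151 CPM in LSK. Gnl3, which encodes nucleostemin, had 351 CPM in MEP, 156 CPM in GMP, 183 CPM in CMP and 188 CPM in LSK. Nop2, a methyltransferase of the large subunit RNA, had 65.0 CPM in MEP, 27.7 CPM in GMP, 24.1 CPM in CMP and 34.4 CPM in LSK. The list medians were 0.63, 0.64 and 0.87 in MEP over GMP, CMP and LSK.

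Of 15 genes of RNA polymerase I and its factors, 12 were above 0 in MEP over GMP. The count was 11 in MEP over CMP and 10 in MEP over LSK. The share was 62.8% among all genes at 50 CPM or more. Only 7 of the 15 reached 50 CPM, and 2 of those were 2-fold higher in MEP over GMP, against 12.1% of all genes. Just 1 of the 7 was in MEP over CMP and 1 in MEP over LSK, against 10.5% and 13.5%. Below the minimum, Polr1a (log2 ratio of MEP over GMP 1.12), Polr1b (1.19) and Taf1c (1.39) were past 2-fold. They were named after their values were seen and are not part of these counts. No share of all genes below the minimum is given to compare them with. Ubtf, which encodes the factor UBF that opens ribosomal DNA for transcription, had 149.8 CPM in MEP, 65.8 CPM in GMP, 99.9 CPM in CMP and 93.9 CPM in LSK. Cd3eap, a polymerase I subunit, had 90.1 CPM in MEP, 41.8 CPM in GMP, 36.2 CPM in CMP and 44.2 CPM in LSK. Taf1d, a subunit of the selectivity factor, ran the other way against LSK, with 116 CPM in MEP, 99.3 CPM in GMP, 155 CPM in CMP and 195.5 CPM in LSK. The list medians were 0.67, 0.58 and 0.53 in MEP over GMP, CMP and LSK.

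The 14 factors that assemble snoRNPs had smaller median ratios than the 10 genes. Of these factors, 13 were above 0 in MEP over GMP, against 62.8% of all genes at 50 CPM or more. None of the 8 factors that reached 50 CPM was 2-fold higher, against 12.1% of all genes at that minimum. The list medians were 0.46, 0.26 and 0.42 in MEP over GMP, CMP and LSK. Nhp2l1, which binds the snoRNA fold in box C/D particles, had 605 CPM in MEP, 401 CPM in GMP, 441 CPM in CMP and 318 CPM in LSK. Ruvbl1, an ATPase of the assembly machine, had 214 CPM in MEP, 117 CPM in GMP, 145 CPM in CMP and 133 CPM in LSK. Znhit3, a box C/D assembly factor, was the 1 gene at 2-fold in MEP over LSK, of 8 that reached 50 CPM and against 13.5% of all genes, with 92.9 CPM in MEP and 39.9 CPM in LSK.

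Within a library, cells were first thinned to 2000 UMIs each, so that depth did not set the spread. In CMP, 3677 of 3713 cells had that many UMIs, and in the other gates all cells did. The 10 genes together then had a median of 20 UMIs per cell in MEP, 11 in GMP, 11 in CMP and 9 in LSK, with 5th to 95th percentiles of 11 to 29, 5 to 19, 5 to 19 and 4 to 16. The MEP and LSK ranges therefore overlapped cell by cell. The variance of the sum over its mean (Fano factor, 1 for counting noise alone) was 1.66 in MEP, 1.49 in GMP, 1.64 in CMP and 1.73 in LSK, while single genes stayed between 0.994 and 1.45. The share of thinned cells with a Nolc1 UMI was 43.7% in MEP, 22.3% in GMP, 25.9% in CMP and 16.6% in LSK, and the unthinned shares were 89.0%, 64.1%, 59.2% and 43.1%. No cell type known to lack these genes was at hand to give a background share of free RNA. LSK barcodes of 1 to 100 UMIs had 4582 CPM of the 10 genes, and the part of free RNA in them was not tested.

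Deeper cells carried a larger part of their RNA in these genes, except that the deepest CMP bin was not above the one before it. That bin held 53 cells, with an interval of 5915 to 6887 CPM. In thinned MEP cells the 10-gene sum was 7682 CPM in cells with 2000 to 4000 UMIs, 8862 CPM with 4000 to 8000, 10047 CPM with 8000 to 16000 and 10729 CPM with 16000 or more. In LSK the same bins had 4027, 4340.5, 5398 and 6022 CPM, in GMP 5103, 5518, 5952 and 6333 CPM, and in CMP 4614, 5724, 6569 and 6387 CPM. The shallowest MEP bin was above the deepest bin of each other gate.

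S-phase RNA went with the 10 genes in all 4 gates, and so did depth. Cells with 3 or more thinned UMIs of the S-phase list had median depths of 12819 UMIs in MEP, 9145 in GMP, 7251 in CMP and 6758 in LSK, against 7950.5, 8632, 4445.5 and 4985 in cells with 1 or 2. The part of depth in the S-phase values was not tested. The S-phase gene list itself summed to 4217 CPM in MEP, 3810.1 CPM in GMP, 3972 CPM in CMP and 3349 CPM in LSK, and the G2/M list to 9366, 7842, 7248 and 5664 CPM. Thinned cells were binned at 0 to 2, 3 to 5, 6 to 10 and 11 or more UMIs of the S-phase list. The 10-gene sum over these bins was 8871, 9584, 10047 and 10049 CPM in MEP and 4876, 5463, 5920.0 and 6164 CPM in GMP. It was 4594, 5419, 6082 and 6581 CPM in CMP and 3828, 4238, 5168 and 5926 CPM in LSK. The highest bin thus exceeded the lowest by 0.18 in MEP, 0.34 in GMP, 0.52 in CMP and 0.63 in LSK on the log2 scale. In GMP, CMP and LSK all 10 genes were higher in the highest bin, and in MEP 7 were.

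In that comparison, 1 gene was 2-fold higher in GMP, Nolc1, with 165 CPM in the highest bin and 73.6 CPM in the lowest, where 2.41% of genes were 2-fold higher. In LSK the 1 gene was Nop56, with 431 CPM in the highest bin and 203 CPM in the lowest, where 6.58% of genes were 2-fold higher. MEP and CMP had 0 and 0, against 3.31% and 4.3% of genes. Every S-phase bin of MEP was above every bin of the other gates.

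The G2/M list gave a different shape. Over bins of 0 to 5, 6 to 10, 11 to 20 and 21 or more UMIs, the 10-gene sum was 8067, 8846, 10294 and 10052 CPM in MEP and 5639.95, 5934, 6041 and 5274 CPM in GMP. It was 5589.9, 6101, 6356 and 5259.95 CPM in CMP and 4252, 4973, 5813 and 4574 CPM in LSK. In each gate the third bin was the highest and the fourth was lower than the third. None of the 10 genes was 2-fold higher in the highest bin than in the lowest, where 5.9%, 3.39%, 5.12% and 5.98% of genes were in MEP, GMP, CMP and LSK.

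**Figure D4:**
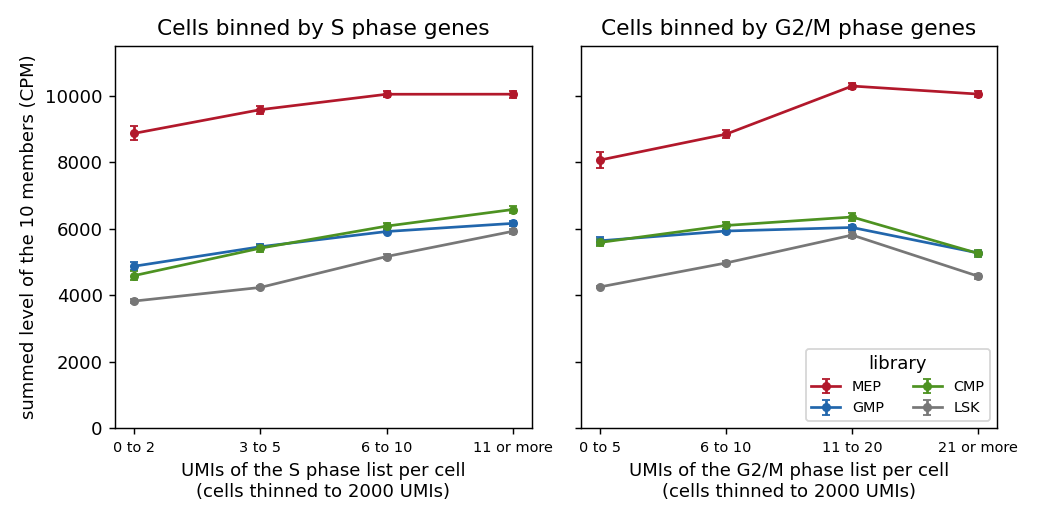
Summed CPM of the 10 genes in cells thinned to 2000 UMIs, binned by UMIs of the S-phase list (left) and the G2/M list (right), 1 line per gate, with exact 95% Poisson intervals. The sum is higher in the highest S-phase bin than in the lowest in all 4 gates (LSK, 5926 and 3828 CPM), and the MEP line lies above the others throughout.

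Cells of a gate were also divided by marker genes of the cell types it could hold, by whether a thinned cell had 3 or more UMIs or 0 UMIs of a marker list. These sets are named by that rule and not as cell types. Their median depths differed as well, and the part of depth in these results was not tested. The marker lists differed between gates. The early erythroid list (Klf1, Gata1, Car1, Car2, Epor) summed to 9328 CPM in MEP, 26.6 CPM in GMP, 343 CPM in CMP and 1244 CPM in LSK, and the neutrophil granule list to 14.2, 29472, 6300.3 and 734 CPM. Their part in the MEP difference was not tested. Single markers of mature lymphocytes were at or near 0, but the lists that hold them were not. Ms4a1 had 0 counts in all 4 libraries, which allows up to 0.111 CPM in CMP, the shallowest, and Cd3e was at most 0.0266 CPM. The B cell list summed to 1.71 CPM in MEP, 49.1 CPM in GMP, 42.9 CPM in CMP and 43.1 CPM in LSK. The T and NK cell list summed to 44.8, 1207, 427 and 318 CPM in the same order.

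In LSK, cells with 3 or more UMIs of the stem cell list (Mecom, Hlf, Procr and others) had a lower level of all 10 genes. The sum was 3922 CPM in those 2483 cells and 5066 CPM in the 3394 cells with 0, a log2 ratio of -0.37 (interval -0.39 to -0.34), with -0.04 as the median of all genes. The genes ran from -0.27 for Ncl to -0.55 for Nolc1, none at 2-fold, where 1.64% of genes were 2-fold lower. Cells with 1 or 2 UMIs were in between, at 4646 CPM. The same cells had 1973 CPM of the S-phase list, against 3475 CPM with 0, and a median depth of 4774 UMIs, against 7195. Among cells with 0 to 5 S-phase UMIs the ratio was -0.25 and among cells with 6 or more it was -0.24, with all 10 genes lower in both.

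In CMP, 110 cells with 3 or more UMIs of the dendritic list (Cd74, the class II genes H2-Aa, H2-Ab1 and H2-Eb1, and Siglech) had a 10-gene sum of 3482 CPM, against 5936 CPM in 3084 cells with 0. The log2 ratio was -0.77 (interval -0.87 to -0.67), with 0.02 as the median of all genes. All 10 genes were lower, and 3 were 2-fold lower, Ncl (459 CPM with 3 or more, 942 CPM with 0), Nop56 (-1.04) and Gar1 (-1.01), where 9.78% of genes were 2-fold lower. The G2/M list was at 13564 CPM in these cells, against 6524 CPM with 0, and their median depth was 5008 UMIs, against 7158.5. In the LSK gate the same division gave -0.16, with all 10 genes lower and median depths of 5292.5 and 6300.0 UMIs. There the G2/M list was lower with 3 or more, at 3124 CPM against 5057 CPM, and so was the S-phase list, at 2310 against 3072 CPM. The LSK ratio was -0.09 among cells with 0 to 5 S-phase UMIs and -0.11 among cells with 6 or more.

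In MEP, 170 cells with 3 or more UMIs of the megakaryocyte list (Pf4, Gp5, Itga2b and others) had 6868 CPM, against 10022 CPM in 5442 cells with 0, a log2 ratio of -0.55 (interval -0.60 to -0.49), with -0.05 as the median of all genes. Nolc1 was 2-fold lower, with 150.0 CPM with 3 or more and 303 CPM with 0, where 6.08% of genes were 2-fold lower. Npm1 (-0.74) and Ncl (-0.72) followed, whereas Fbl (-0.12), Nop56 (-0.15) and Dkc1 (0.01) moved little. These cells were shallow, with a median of 5262 UMIs, against 13056, and MEP cells of 4000 to 8000 UMIs as a whole stood at 8862 CPM. The ratio was -0.53 among cells with 0 to 5 S-phase UMIs and -0.54 among cells with 6 or more.

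The later erythroid list gave a small difference in MEP. Cells with 3 or more UMIs had 10049 CPM and cells with 0 had 9170.3 CPM, a log2 ratio of 0.13, with Nolc1 at 0.39 and Nhp2 at 0.35 and Fbl at -0.16. Their median depths were 15348 and 8282 UMIs. The early erythroid list, outside the MEP gate, went with lower levels of all 10 genes, at -0.26 in CMP (5107 CPM with 3 or more, 6121 CPM with 0) and -0.28 in LSK (4278 and 5202 CPM). These sets were 485 cells with 3 or more and 2390 with 0 in CMP, with median depths of 4339 and 7890.5 UMIs, and 4874 and 1785 cells in LSK, with 5414 and 7443 UMIs. The S-phase list was at 3273 CPM with 3 or more and 3911 CPM with 0 in CMP, and at 2517 and 3615 CPM in LSK. Among cells with 0 to 5 S-phase UMIs the ratio was -0.26 in CMP, with 9 genes lower, and -0.16 in LSK, with all 10 lower. Among cells with 6 or more it was -0.17 in CMP, with 8 lower, and -0.19 in LSK, with all 10 lower. In CMP over LSK, 4 of the 5 early erythroid genes were above 0 and 1 was 2-fold lower. The list still summed to 343 CPM in CMP and 1244 CPM in LSK, so most of the LSK sum was that 1 gene. The LSK division by this list thus rested largely on 1 gene.

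The neutrophil granule list (Elane, Mpo, Prtn3 and others) went with higher levels of all 10 genes in CMP. In CMP, 2569 cells with 3 or more UMIs had 6252 CPM and 519 cells with 0 had 4973 CPM, a log2 ratio of 0.33 (interval 0.29 to 0.37), with -0.01 as the median of all genes. No gene was 2-fold higher, where 2.65% of genes were. The median depth was 7972 UMIs with 3 or more and 4723 with 0. The ratio was 0.42 among cells with 0 to 5 S-phase UMIs and 0.22 among those with 6 or more, where 8 of 10 genes were higher. In LSK the same list gave 0.02, at 6322 UMIs with 3 or more and 6126 with 0.

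The remaining lists gave ratios from -0.55 to 0.10. The monocyte list gave -0.10 in GMP, -0.01 in CMP and -0.10 in LSK (85 cells). The basophil and mast cell list gave -0.07 in GMP and -0.05 in CMP, the megakaryocyte list -0.11 in CMP and -0.02 in LSK, and the lymphoid-primed list 0.00 in LSK (4646 CPM with 3 or more, 4632 CPM with 0). Median depths with 3 or more and with 0 UMIs were 9325 and 7962 for the monocyte list in GMP, 8364 and 5714 in CMP, and 9384 and 5938 in LSK. They were 6794 and 9315.5 for the basophil and mast cell list in GMP and 5564 and 7423 in CMP, 6191 and 7379.5 for the megakaryocyte list in CMP and 6177.5 and 6161 in LSK, and 6936 and 5878 for the lymphoid-primed list. The eosinophil list gave -0.31 in GMP on 53 cells with a median of 6527 UMIs, against 9142.5 with 0, and the later erythroid list -0.19 in LSK on 84 cells with 4920 UMIs, against 6018. The T and NK cell list rested almost wholly on Nkg7 (1205 CPM in GMP) and gave -0.55 in MEP on 78 cells with a median of 4616 UMIs, against 13471 with 0, and -0.02, -0.06 and 0.10 in GMP, CMP and LSK, where the depths were 9062.5 and 9163.5, 5117 and 7889, and 7133.5 and 5668 UMIs. The B cell, macrophage and endothelial/stromal lists summed to at most 49.1, 10.1 and 47.1 CPM in any library, and most of the B cell and endothelial sums were Cd79b and Pecam1.

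**Figure D5:**
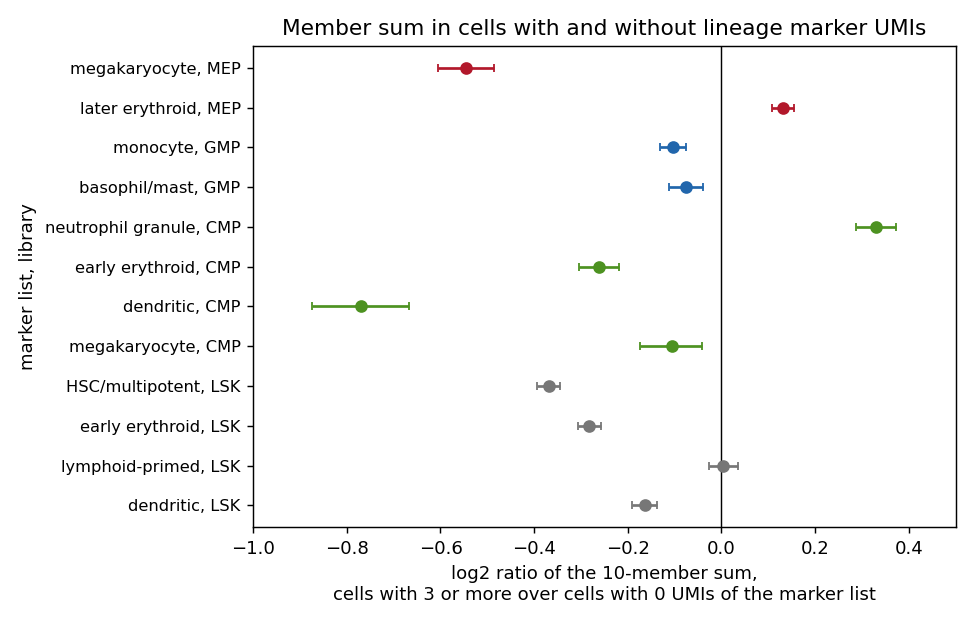
Log2 ratio of the summed CPM of the 10 genes, cells with 3 or more over cells with 0 thinned UMIs of a marker list, for 12 pairs of list and gate, with exact 95% intervals. The dendritic list in CMP (-0.77), the megakaryocyte list in MEP (-0.55) and the stem cell list in LSK (-0.37) lie below 0, and the neutrophil granule list in CMP (0.33) lies above it.

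Across single cells of a gate, the 10 genes varied together only weakly in these sparse counts. Median Pearson correlations of log thinned counts between pairs of the genes were 0.02 to 0.06 in the 4 libraries, over cells that share a library and its depth, and the highest pair, Ncl with Npm1 in MEP, reached 0.18. The genes outside the group with the highest mean correlation with the 10-gene sum over the 4 libraries, of 5287 ranked, were Mif (0.22), Ran (0.21), Ranbp1 (0.21), Hsp90aa1 (0.21), Ptma (0.20), Ppia (0.20), Hspd1 (0.19), Nme1 (0.18), Hspe1 (0.17) and Slc25a5 (0.17). Ribosomal protein genes as a sum had -0.22 in MEP, 0.26 in GMP, 0.16 in CMP and -0.12 in LSK, so the sign differed between gates. The large subunit assembly list had 0.24 to 0.27 in all 4.

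Core promoters of 8 of the 10 genes were read from RefSeq (GRCm38.p6, 250 bases before to 50 after the start). The GC-rich motif GGCGGG, searched on both strands, was in 5 of the 8 and in 35.3% of all 32851 promoters. Ncl had 4 matches, Nhp2 had 2, and Nop56, Nop58 and Nolc1 had 1 each. The related form GGGCGG was not searched. The E-box CACGTG, which MYC with MAX can bind and which reads the same on both strands, was in 0 of 8 and in 7.15% of all. TATAAA, on either strand, was in 1 of 8 (Dkc1) and in 13.6% of all. The promoters of Nolc1 and Nop10 are shown because these genes had the largest and the smallest ratio of MEP over GMP, 1.21 and 0.01. Capitals mark GGCGGG or its complement CCCGCC. Nolc1 (plus strand, chr19:46075597-46075896) has 57.0% G and C and 1 match, and Nop10 (plus strand, chr2:112261676-112261975) has 49.3% and none.
Nolc1: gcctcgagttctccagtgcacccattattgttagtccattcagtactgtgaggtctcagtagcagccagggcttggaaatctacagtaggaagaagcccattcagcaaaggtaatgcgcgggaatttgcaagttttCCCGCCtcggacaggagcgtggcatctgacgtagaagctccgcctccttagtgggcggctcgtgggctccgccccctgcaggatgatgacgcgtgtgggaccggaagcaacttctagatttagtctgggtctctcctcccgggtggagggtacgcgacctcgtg
Nop10: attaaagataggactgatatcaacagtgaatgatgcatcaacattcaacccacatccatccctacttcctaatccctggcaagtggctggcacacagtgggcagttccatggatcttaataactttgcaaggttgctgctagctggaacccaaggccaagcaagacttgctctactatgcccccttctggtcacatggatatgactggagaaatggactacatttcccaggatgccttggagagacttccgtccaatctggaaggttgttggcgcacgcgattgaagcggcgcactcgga

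Counting has limits for some of these genes. Near-identical copies, over at least 200 of the last 500 bases at 95% identity, were found for Npm1 (4 pseudogenes), Nop56 (5 pseudogenes) and Fbl (1 pseudogene and a Tulp4 transcript), and for none of the other 7, so reads of those 3 genes could be split. The copies with a row in the table were low, Gm5611 at 12.7 CPM in MEP, 7.28 CPM in GMP, 3.94 CPM in CMP and 9.18 CPM in LSK, and Tulp4 at 0.750 to 3.56 CPM. Nop56, Dkc1 and Nhp2 overlap Idh3b, Mpp1 and Rmnd5b on the opposite strand by 5, 45 and 44 bases, and no source used here says whether the counting used the strand.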

How the data were processed

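Counts of UMIs per gene and barcode were used as deposited by the authors, not normalized. The submitters' processing notes name the mm10 build and, with no role or order, Seurat 2.3.0, Cell Ranger 2.0.0 and CASAVA 1.8.2; no source used here states strand use or cell filters. The GMP and MEP matrices held 8064 and 6370 barcodes, as the design text states. The LSK matrix held 737280 barcodes, of which the 10883 with 2110 or more UMIs were taken as cells (10882 stated). The CMP matrix held 3738 barcodes, and the remaining cells of the 12185 stated are not analysed here. A cell was kept with at least 500 genes detected and mitochondrial UMIs at 10% or below.

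Counts were summed per library and divided by its total (CPM). Ratios have exact conditional binomial intervals, sums exact Poisson intervals and shares exact Clopper-Pearson intervals, at 95%. Counts under 3 were set to 3 in ratios; 3 counts are 0.0374 CPM in MEP, 0.0409 CPM in GMP, 0.111 CPM in CMP and 0.0399 CPM in LSK. Doublets were kept, and as an alternative the cells with the highest scrublet scores (0.8% per 1000 cells) were removed: 5.03% of MEP, 6.42% of GMP, 2.96% of CMP and 8.69% of LSK. The other alternatives were TMM (edgeR 4.0.16) and median-of-ratios (DESeq2 1.42.0) factors in R 4.3.3, thinning, equal weight per cell, a total without ribosomal protein and mitochondrial genes, no cell filter and other CPM minimums. Cell cycle bins and marker divisions within S-phase strata were chosen after seeing the data. Of the gene IDs, 27645 of 27998 were in GENCODE M21.

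The 10 genes and all gene lists were chosen with earlier results of these data known. Genes named from a list were among the 4 with the highest mean CPM or were 2-fold different in a pair discussed. The 10 genes most like the sum were ranked among genes of 10 CPM or more in each library, leaving out ribosomal protein, mitochondrial and predicted genes. Python 3.11.15, numpy 2.4.6, scipy 1.17.1, pandas 2.3.3, scanpy 1.11.5 and matplotlib 3.10.9 were used, and the scripts were tested on simulated data.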

Additional observations from a re-analysis of the deposited data

Results flagged for a closer look

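LSK barcodes below the cell threshold of 2110 UMIs enter no comparison of the report, and they held UMIs of the 10 genes as well. The 508787 such barcodes with any UMI held 22122930 UMIs, and the 10 genes summed to 5259 CPM in them (interval 5229 to 5289), against 4922 CPM in LSK cells. Barcodes with 1 to 100 UMIs had 4582 CPM and barcodes above 100 UMIs had 5297 CPM. By gene, Npm1 had 1986 CPM below the threshold and 1876 CPM in LSK cells, Nop58 had 358 and 289 CPM, and Nop10 had 585 and 626 CPM.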

How the results depend on the processing

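Values are log2 ratios of the 10-gene sum for MEP over GMP, MEP over CMP, MEP over LSK, GMP over CMP, GMP over LSK and CMP over LSK, in this order. They were 0.81, 0.74, 1.07, -0.06, 0.26 and 0.32 as reported. Median-of-ratios factors gave 0.79, 0.88, 1.58, 0.10, 0.80 and 0.70, and TMM factors 0.80, 0.86, 1.502, 0.066, 0.70 and 0.64, so that GMP over CMP reversed under both. Thinned cells gave 0.77, 0.75, 1.10, -0.020, 0.33 and 0.35, and each cell weighing the same gave 0.78, 0.75, 1.10, -0.021, 0.32 and 0.34. A total without ribosomal protein and mitochondrial genes gave 0.83, 0.73, 1.01, -0.10, 0.18 and 0.28. Genes 2-fold higher numbered 4 in MEP over CMP, 10 in MEP over LSK, 3 in GMP over LSK and 3 in CMP over LSK with median-of-ratios factors, and 4, 10, 2 and 2 with TMM, against 1, 5, 1 and 0 as reported; in MEP over GMP both gave 2, against 3. The LSK division by S-phase UMIs gave 0.48 at 5 or more over 0 UMIs, against 0.37 at 3 or more. Removing cells of high doublet score, no cell filter and other CPM minimums moved none of these sums past its counting interval and changed none of these counts. The cause of the shifts was not tested.

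No paired analysis was possible because each gate has 1 library, and leaving out a library leaves no comparison. Differences between gates and between sorts, animals or captures cannot be told apart. Depth limits single genes in single cells: a thinned cell held a median of 9 to 20 UMIs of all 10 genes. CMP, the shallowest library, has the widest intervals.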

Other observations

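Paralogs of the 10 genes followed the gates in part. Npm3, the nucleoplasmin-family relative of Npm1, had 620.2 CPM in MEP, 489 CPM in GMP, 431 CPM in CMP and 244 CPM in LSK, and was 2-fold higher in MEP than in LSK (log2 ratio 1.35) and in GMP than in LSK (1.003). Prpf31, the spliceosomal relative of Nop56 and Nop58, had 94.3 CPM in MEP, 96.2 CPM in GMP, 90.2 CPM in CMP and 76.1 CPM in LSK. Tcof1, a relative of Nolc1, had 86.9 CPM in MEP, 69.2 CPM in GMP, 78.1 CPM in CMP and 99.3 CPM in LSK, a log2 ratio of MEP over LSK of -0.19, within the 0.52 shift of median-of-ratios factors. Npm2 had 3 counts in MEP, 6 in GMP, 7 in CMP and 23 in LSK.

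The Myc network, whose best known targets include ribosome assembly genes, was not highest in MEP as a list. Myc itself had 71.0 CPM in MEP, 72.8 CPM in GMP, 75.5 CPM in CMP and 100.7 CPM in LSK, a log2 ratio of MEP over LSK of -0.50, also within that shift. Its partner Max had 82.8, 68.2, 69.0 and 70.8 CPM in the same order. Mxd4, a repressor that competes for Max, had 15.9 CPM in MEP, 29.0 CPM in GMP, 39.2 CPM in CMP and 81.7 CPM in LSK. The medians of the 10 detected genes of the list were -0.06, -0.37 and -0.75 in MEP over GMP, CMP and LSK. Among the 5 snoRNA host transcripts with a row in the table, Gnb2l1 had 2327 CPM in MEP, 1448 CPM in GMP, 1543 CPM in CMP and 1433 CPM in LSK, Tpt1 had 2045, 1702, 2073 and 2062 CPM in the same order, and Snhg12 had 53.1, 25.8, 58.8 and 68.8 CPM. Eif4a2 ran against the MEP order, with 80.4 CPM in MEP, 80.8 CPM in GMP, 121 CPM in CMP and 214 CPM in LSK.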
